A study of Mus musculus with 310 samples.

Results

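Postn, Lhx2, Lgr5, Cd34, Grem1 and Sema3e, 6 of the 14068 genes in the counts table, were followed in every cell, plate and group of single keratinocytes from the tail epidermis of aged mice. They were chosen by name, with earlier results of these data known, as genes of the hair follicle (HF) bulge together with Postn. All mice carried 2 alleles, Lrig1-EGFP-ires-CreERT2 and the reporter Rosa26-fl/STOP/fl-tdTomato, on a mixed CBA C57BL/6 background. All received hydroxytamoxifen on the tail, in 1 topical dose, so that cells with an active Lrig1 promoter and their progeny became tdTomato-positive, and such cells were sorted and sequenced one by one with a modified Smart-seq2 protocol. The labels give 145 cells to the group 38w (RepI and RepL) and 165 cells to the group 38wUW (RepM and RepN), with no other difference of genotype or treatment, and 38 is the time in weeks. The labels do not spell out UW. In the study a bare age marks the unwounded control, while UW could itself be read as unwounded, so which group had been wounded is open and every difference is given as 38w against 38wUW. Nothing in the labels says that a replicate is 1 mouse, so the tests measure the spread between these samples.

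The bulge is the lower permanent part of the HF and houses slow-cycling stem cells (SCs) that rebuild the lower follicle at each hair cycle. Lrig1 marks SCs of the junctional zone (JZ), higher up the follicle, which maintain the infundibulum (INFU) and the sebaceous gland. Among the members, Lhx2 is a LIM-homeobox transcription factor of HF stem cells, Lgr5 a receptor for R-spondins, the enhancers of Wnt signalling, and Cd34 a surface sialomucin used to sort mouse bulge cells. Grem1 is a secreted antagonist of bone morphogenetic proteins (BMPs), and Sema3e a secreted class 3 semaphorin whose receptor is Plxnd1. Postn encodes periostin, a matricellular protein that binds integrins and collagen, and serves in the study as a marker of the INFU.

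Reads per cell ranged from 11711 to 721564, with a median of 61294. RepI was spread over plates C114 (53 cells) and C118 (17 cells), while RepL (C119), RepM (C128) and RepN (C129) each filled 1 plate, so replicate and plate cannot be told apart for these. C114 stood apart: the median share of reads on ribosomal protein genes was 31.9% there and 3.61% to 6.90% on the other plates, and it supplied 8005329 of the 9725117 reads of RepI, so the group values are also given with RepI taken from C118 alone. The keratinocyte label was matched by reads of Krt14 in 279 cells. Fibroblast, immune and melanocyte marker lists summed to at most 11, 2.93 and 25.9 CPM (reads scaled to a common total per replicate), and 4 of 8, 5 of 8 and 3 of 6 of their genes are not analysed here. Of 8 endothelial markers 3 are not analysed here and 4 reached at most 2.19 CPM, whereas Pecam1 was read in all 310 cells, and the list summed to 1264 to 8773 CPM. What the Pecam1 reads derive from was not resolved. The mean of the list was 6242 to 7758 CPM in cells with a read of a given member and 7276 to 7387 CPM in cells without it. The names of 15 cells carry an unexplained suffix, and 11 wells of C114 appear under the names of 2 cells. Both samples with the suffix MBULK, which might be pools of cells, held 0 reads of all 6 genes.

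The 6 genes lie on 5 chromosomes of GRCm38, and all are protein coding in the GENCODE annotation. Postn is at chr3:54361109-54391037 (+), Lhx2 at chr2:38339281-38369733 (+), Lgr5 at chr10:115450311-115587780 (-), Cd34 at chr1:194938819-194961279 (+), Grem1 at chr2:113746164-113758646 (-) and Sema3e at chr5:14025276-14256689 (+). Genes annotated on the opposite strand within Lhx2, Lgr5, Cd34 and Sema3e are not analysed here. Upstream windows of 3 genes are shown, each 250 bases up to the RefSeq start on GRCm38.p6: that of Postn, the most abundant gene, and those of Lhx2 and Sema3e, the members whose cells overlapped most closely. Capitals mark TATAAA, the TATA box core, or CTTTGA, the TCF/LEF core, on either strand.
Postn chr3:54360857-54361106 (+): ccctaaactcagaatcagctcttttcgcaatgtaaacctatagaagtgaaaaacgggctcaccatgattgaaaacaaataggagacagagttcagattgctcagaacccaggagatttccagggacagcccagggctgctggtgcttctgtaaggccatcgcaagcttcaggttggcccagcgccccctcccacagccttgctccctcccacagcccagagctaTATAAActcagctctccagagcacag
Lhx2 chr2:38339031-38339280 (+): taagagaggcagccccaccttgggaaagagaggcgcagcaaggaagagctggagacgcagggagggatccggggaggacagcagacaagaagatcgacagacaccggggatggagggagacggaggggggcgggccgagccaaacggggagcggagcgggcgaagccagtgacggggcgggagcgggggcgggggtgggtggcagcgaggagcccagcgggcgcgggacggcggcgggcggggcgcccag
Sema3e chr5:14025026-14025275 (+): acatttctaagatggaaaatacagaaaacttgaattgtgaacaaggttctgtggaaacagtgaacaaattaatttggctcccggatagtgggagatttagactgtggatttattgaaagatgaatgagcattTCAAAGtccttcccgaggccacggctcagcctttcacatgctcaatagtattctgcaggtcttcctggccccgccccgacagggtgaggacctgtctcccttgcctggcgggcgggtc
The Postn window held TATAAA 26 bases before the start, a word found in 12.4% of 32851 mouse windows of this length. That of Sema3e held CTTTGA from position 133 of its 250 bases (13.8% of windows). The Lhx2 window held neither, nor the homeodomain core TAATTA (4.84% of windows), and was made of G and C to 72.8%, above the upper quartile of all windows (61.2%), against 48.0% for Sema3e and 52.0% for Postn.

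Postn was read in 38.4% of the 310 cells, more than any other member. Its summed level was 66.0 CPM in RepI, 771 CPM in RepL, 695 CPM in RepM and 1079 CPM in RepN, so the groups overlapped, with RepL above RepM. A single cell held 67.0% of the Postn reads of RepL. Without the cell richest in Postn in each replicate, the levels were 50.3, 281, 571 and 951 CPM, and the groups did not overlap. Within RepI the level was 37.6 CPM on C114 and 198 CPM on C118, both below every other plate. To compare shares of cells at equal depth, cells were thinned to 20000 reads, which left out 7 cells of 38w and 26 of 38wUW. Postn was then read in 22.1% of cells of RepI (95% Wilson interval 13.8 to 33.3), 20% of RepL (12.3 to 30.8), 37.5% of RepM (26.7 to 49.7) and 56.0% of RepN (44.7 to 66.7). Both 38w shares lay below both 38wUW shares, a mean of 21% ± 1.46 (SD, n = 2) against 46.8% ± 13.1 (SD, n = 2), with p = 0.3333 by the exact two-sided permutation test. That is the smallest p that 2 against 2 replicates can give, and it applies to every share below. How many of all genes had thinned shares that kept the groups apart was not counted. Such separations, here and below, are thus given without a background. In cells with a read, the median level was 373 CPM in 38w and 1082 CPM in 38wUW. By replicate the medians were 170 CPM in RepI, 1190 CPM in RepL, 1116 CPM in RepM and 1082 CPM in RepN. The groups thus overlapped, with RepL the highest. A summed level does not tell fewer expressing cells from less RNA per cell, for Postn and for the other members, and the shares and the medians in cells with a read are given beside it.

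**Figure D1:**
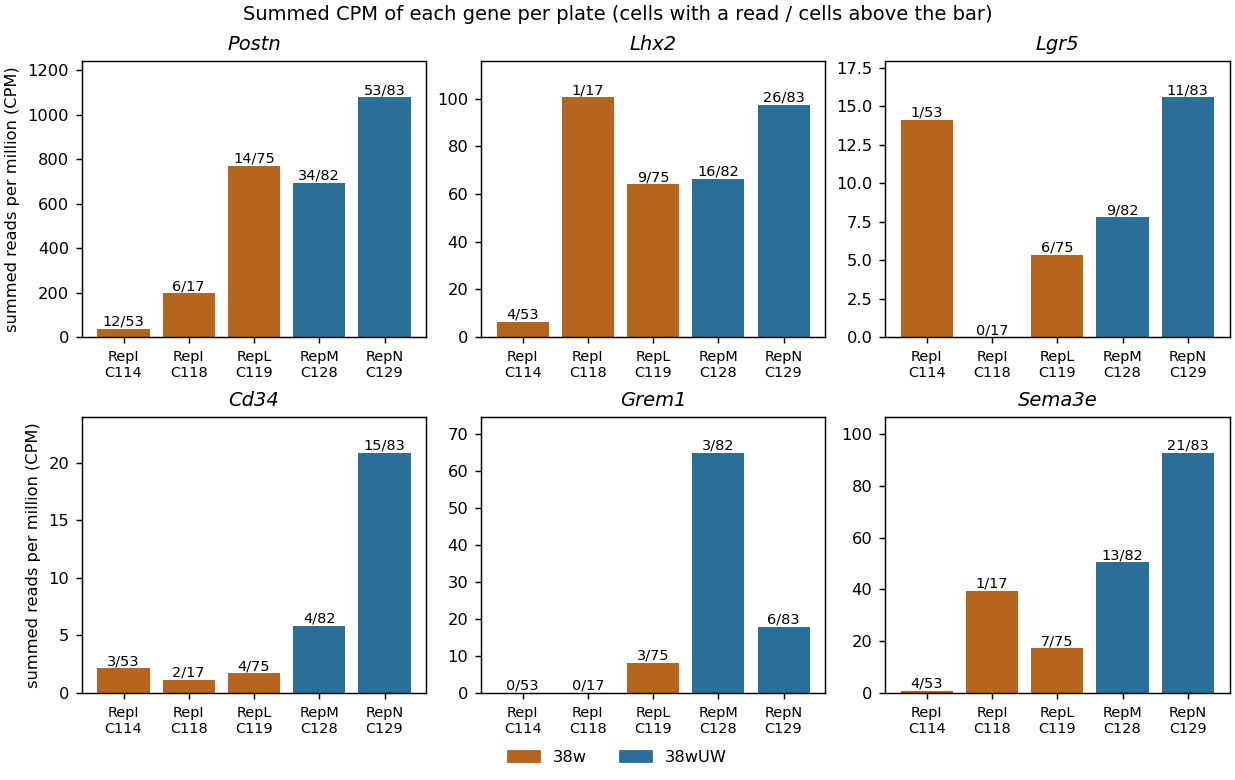
Summed level of each gene per plate in CPM (bars, linear axis from 0), coloured by group, with the number of cells holding a read over the cells of the plate above each bar. Postn on C119 nearly equals C128, Sema3e is highest on C128 and C129, Grem1 has no read on C114 and C118, and the Lhx2 bar of C118 and the Lgr5 bar of C114 (14.1 CPM) each rest on 1 cell.

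Lhx2 was read in 56 cells. Its level was 23.1 CPM in RepI, 64.1 CPM in RepL, 66.3 CPM in RepM and 97.5 CPM in RepN, which did not overlap between the groups, although RepL and RepM were nearly equal. This rested on C114: the level was 6.5 CPM there and 100.6 CPM on C118, above both 38wUW replicates, so that without C114 the groups overlapped. The C118 value came from 1 cell with 173 of the replicate's 225 reads. At equal depth Lhx2 was read in 4.41%, 10%, 14.1% and 28% of cells in the order of the levels above, a mean of 7.21% ± 3.95 against 21% ± 9.86 (SD, n = 2 each), and again the groups did not overlap (exact permutation p = 0.3333). Cells with an Lhx2 read held a median of 150 CPM in 38w and 186 CPM in 38wUW. By replicate the medians were 111, 181, 113 and 271 CPM, in the same order, and the groups overlapped.

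Lgr5, the receptor of the set, was sparse, with 388 reads in 27 cells. Its level was 11.6 CPM in RepI, 5.34 CPM in RepL, 7.78 CPM in RepM and 15.6 CPM in RepN, and the groups overlapped. All 113 reads of RepI came from 1 cell on C114, which at 990 CPM had the highest Lgr5 level of all cells, and C118 held none, which allows up to 1.74 CPM. Without the richest cell of each replicate the levels were 0, 2.43, 4.80 and 8.35 CPM. At equal depth 1.47%, 7.14%, 12.5% and 9.33% of cells held a read, which did not overlap (exact permutation p = 0.3333). The difference of the means, -6.61 percentage points, was -0.21 with cells thinned to 10000 reads (exact permutation p = 1.0), and when at least 5 reads were required the 38w mean was the higher by 1.38 percentage points. Cells with a read held a median of 79.5 CPM in 38w (7 cells) and 34.9 CPM in 38wUW (20 cells), so here the median was the higher in 38w.

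Cd34 was read in 28 cells, of which 19 had fewer than 5 reads. Its level was 1.95 CPM in RepI, 1.72 CPM in RepL, 5.85 CPM in RepM and 20.9 CPM in RepN, the 38w replicates being the lower on each of their plates. In RepM 25 of the 32 reads came from 1 cell, and without the richest cell of each replicate RepM had 1.29 CPM, beside 1.04 CPM in RepL. The shares of cells at equal depth overlapped between the groups: 2.94%, 5.71%, 4.69% and 10.7% of cells, in the same order (exact permutation p = 0.667). The median in cells with a read was 29.8 CPM in 38w and 63.1 CPM in 38wUW. By replicate the medians were 12.7, 98.1, 71.2 and 63.1 CPM, so the groups overlapped, with RepL the highest.

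Grem1 was the rarest member, read in 12 cells. RepI had no read in 70 cells, which allows up to 0.308 CPM (3 reads) and up to 4.29% of cells with a read (3 cells), RepL had 8.10 CPM, RepM 64.9 CPM and RepN 17.8 CPM. The levels did not overlap between the groups, yet 308 of the 355 reads of RepM and 184 of the 231 of RepN were in 1 cell each. Without the richest cells RepL (4.18 CPM) exceeded RepN (3.79 CPM), and the thinned shares of 0%, 4.29%, 3.13% and 6.67% overlapped (exact permutation p = 0.667). As for Lgr5, the median in cells with a read was the higher in 38w, at 353 CPM in 3 cells against 145 CPM in 9 cells of 38wUW. By replicate, however, it was 353 CPM in RepL, 743 CPM in RepM and 102 CPM in RepN, so the groups overlapped.

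Sema3e, the other secreted ligand, was read in 46 cells. Its level was 7.61 CPM in RepI, 17.2 CPM in RepL, 50.4 CPM in RepM and 92.8 CPM in RepN, without overlap. On C114 it was 0.750 CPM, and on C118 39.5 CPM, all from 1 cell. The groups stayed apart without the richest cell of each replicate, at 0.639, 12.7, 15.5 and 69.5 CPM. At equal depth 1.47%, 8.57%, 10.9% and 22.7% of cells held a read, a mean of 5.02% ± 5.02 against 16.8% ± 8.29 (SD, n = 2 each; exact permutation p = 0.3333). The shares overlapped when cells were thinned to 10000 reads (a difference of -7.27 percentage points) and when at least 5 reads were required (-6.75), each with an exact permutation p of 0.667. The median in cells with a read was 120 CPM in 38w and 208 CPM in 38wUW. By replicate the medians were 8.76, 160, 162 and 316 CPM, so RepL and RepM were nearly equal.

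Per kilobase of exon, a scale that lets genes be compared, Postn was highest with a mean over the 4 replicates of 75.0 ± 48.8 CPM per kb (SD), followed by Lhx2 at 14.3 ± 6.94, Grem1 at 5.47 ± 7.0, Sema3e at 4.53 ± 4.15, Cd34 at 1.04 ± 1.24 and Lgr5 at 0.982 ± 0.438 CPM per kb. Below Postn, no member differed from the next in this order beyond their spread. In RepM Grem1 (15.6 CPM per kb) was above Lhx2 (15.1 CPM per kb), while in RepI Grem1 had no read. Postn was above Lhx2 in each replicate, down to 7.59 against 5.27 CPM per kb in RepI.

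Tested across all 11760 genes that passed the filter on low counts, no member passed the edgeR test between the groups, and nor did any other gene (0% called). At an unadjusted p under 0.05 edgeR had 949 genes, and DESeq2 called 68 genes after adjustment, none of them a member. The fitted log2 fold change (38w minus 38wUW, ± SE) was -0.85 ± 1.11 for Postn, -0.67 ± 0.88 for Lhx2 and -0.21 ± 1.06 for Lgr5, with edgeR adjusted p of 0.843, 0.843 and 0.963. Those of the other members were larger: -2.60 ± 1.21 for Cd34, -3.15 ± 1.47 for Grem1 and -2.29 ± 0.93 for Sema3e, each with an adjusted p of 0.617. These 3 were among the lower genes with an unadjusted p under 0.05, a group that held 3.78% of all genes tested. All 6 values were negative, beside a median of 0.12 and a share of 46.6% negative values over all genes, but those of Postn, Lhx2 and Lgr5 turned positive under some other settings. In 4 of 6 members (Lhx2, Cd34, Grem1 and Sema3e) both 38w replicates were below both 38wUW replicates in CPM, which 26.2% of all genes tested did too. With RepI from C118 alone, Lgr5 took the place of Lhx2 among the 4, beside 26.4% of all genes tested. Other markers moved with the groups. All 8 basal markers had higher fitted values in 38w (summed level 24276, 7227, 3040 and 2570 CPM in RepI, RepL, RepM and RepN), as did 6 of 7 interfollicular markers, and without C114 these were 7 of 8 (2835 CPM in RepI, below RepM) and 5 of 7. The median mitochondrial share of reads was 4.28% and 9.69% in 38w (33.8% on C118) against 14.6% and 18.3% in 38wUW. The part of these markers and shares in the members' values was not tested. The outcome turned on single replicates. Without RepL, 38w was RepI alone, with 8005329 of its 9725117 reads from C114. The value was then -3.41 for Postn and -2.89 for Sema3e. Grem1 was without a read in 38w, and its mean in 38wUW was at least 134-fold higher than the 3 reads that a count of 0 allows. Without RepI the Postn value was 0.03. In both of these fits 38w was 1 replicate, assumed to vary like the 38wUW replicates, which alone gave the spread.

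**Figure D2:**
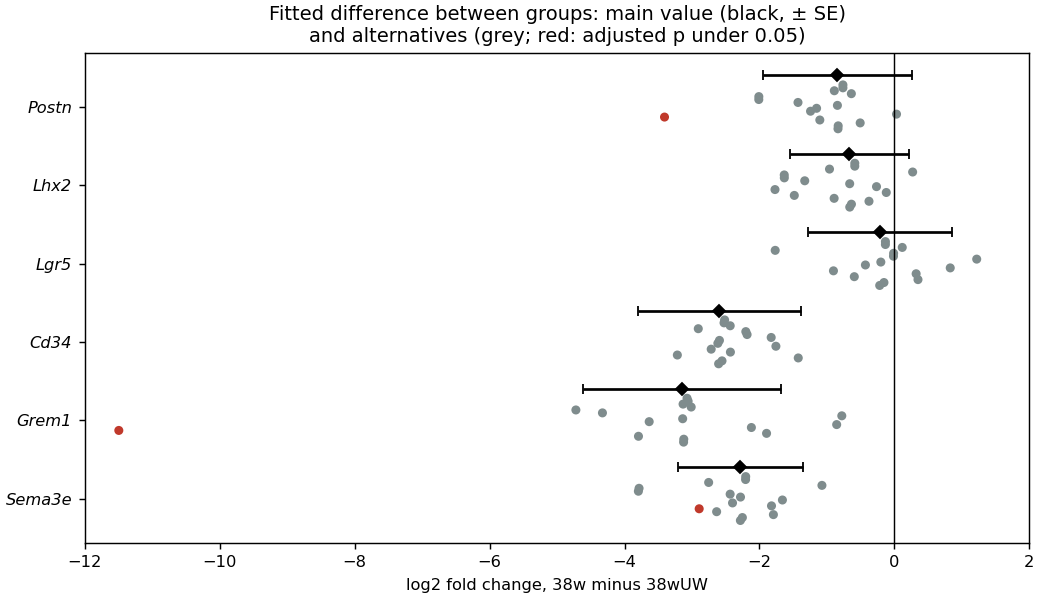
Log2 fold change (38w minus 38wUW) of each gene, with the edgeR value and its standard error in black and the other settings as grey points, red where the adjusted p was under 0.05. Cd34, Grem1 and Sema3e lie below 0 under every setting shown, Lgr5 straddles 0, and the red points of Postn, Grem1 and Sema3e all come from leaving out RepL. That fit has RepI alone in 38w, and many genes other than the members passed in it. The Grem1 point at -11.49 is no bound and its size depends on the fit, since 38w then held no read.

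About as many cells held a member as held none. No member was read in 154 cells, 1 in 88, 2 in 22 and at least 3 in 46 cells, and 1 cell on C129 held all 6. Lhx2 and Sema3e shared 32 cells, or 57.1% of Lhx2 cells and 69.6% of Sema3e cells, whereas Sema3e was read in 5.51% of cells without Lhx2. Postn was read in all 12 Grem1 cells, in 75.0% of Lhx2 cells, in 69.6% of Sema3e cells and in 67.9% of Cd34 cells. Of the Lgr5 cells 48.1% held Postn, 44.4% Lhx2, 22.2% Sema3e and 3.70% Grem1, the last being 1 cell. Depth moved with these counts, as cells with at least 3 members had a median of 97780 reads and cells without any 52650, and its part was not tested here. Cells with at least 3 members made up 2.86% of RepI, 10.7% of RepL, 12.2% of RepM and 31.3% of RepN. By group they were 10 of 145 cells in 38w (9 of 92 without C114) and 36 of 165 in 38wUW.

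**Figure D3:**
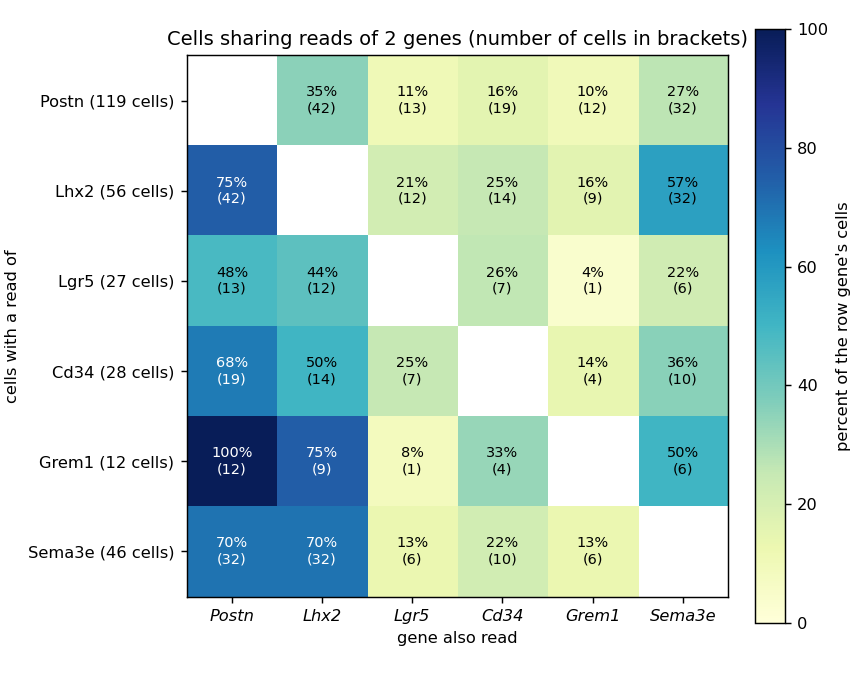
For cells with a read of the gene named at the left, the percent that also held a read of the gene named below, with the number of shared cells in brackets. The Grem1 row reaches 100% for Postn, Lhx2 and Sema3e share 32 cells, and the Lgr5 row stays at or below 48%.

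Over all 310 cells, levels as log2(CPM + 1) centred on each plate's mean gave the genes most like each member. For Lhx2 these were Shisa2 (Pearson r = 0.63), Gm973 (0.63) and Sema3e itself (0.58), and for Sema3e they were Aspn (0.59), Lhx2 (0.58) and Col4a4 (0.53), a basement membrane collagen chain. Those of Postn were Ptn (0.52), the growth factor pleiotrophin, Cav1 (0.50), the coat protein of caveolae, and Col17a1 (0.49), the hemidesmosomal collagen. Lgr5 was nearest to Bgn (0.45), the proteoglycan biglycan, Farp1 (0.39) and Ccdc3 (0.36), Cd34 to Ppp1r3b (0.46), Pdgfc (0.43) and Glrb (0.38), and Grem1 to 1700019D03Rik (0.40), Dkk3 (0.38) and Plpp1 (0.37). The cells share plates, depth and many zeros, so the coefficients are descriptions. The pair Lhx2 and Sema3e reached 0.86 within C119, 0.33 within C128 and 0.61 within C129, while Lgr5 and Sema3e stayed between -0.14 and 0.10 on these plates.

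To see which cells held the members, all cells were clustered without these 6 genes. Of 9 clusters, 1 with 32 cells raised 7 of 8 bulge markers (among them Krt15, Sox9, Nfatc1 and Dkk3) and was called bulge-like, although its leading genes by fold were others (Col4a4, Peg3, Aspn). In it Postn was read in 30 of 32 cells (93.8%), Lhx2 in 26 (81.3%), Sema3e in 24 (75.0%), Cd34 and Grem1 in 10 each (31.3%) and Lgr5 in 5 (15.6%). It held 71.9% of all Lhx2 reads but 2.83% of all Lgr5 reads. The interfollicular-like cluster, of similar depth (median 48699 reads against 56468 in bulge-like cells), served as background, with no Lhx2, Sema3e or Grem1 read in 32 cells (which allows up to 9.38%), and with Cd34 in 3, Lgr5 in 1 and Postn in 5 of them. Among 35 sebocyte-like cells Postn was read in 12 and Lhx2 in 1, and among 64 duct/infundibular-like cells in 8 and 3. Outside the bulge-like cells, Postn was frequent in an unnamed cluster of 48 cells (32 cells, 66.7%). There 89.6% held Krt15 and 72.9% Ptn, against 59.9% and 38.5% of all other cells. Dkk3, Nfatc1 and Aldh3a1 were also read more often there. Sox9 (62.5% against 65.6%), Cxcl14 (22.9% against 35.1%) and Plet1 (37.5% against 42.7%) were not. The mean level of Krt15 was 663 against 730 CPM. This cluster had the highest median depth (110250 reads), and the part of depth in its shares was not tested. Lgr5 was most frequent in an unnamed cluster of 9 cells led by Prss35, Slc7a2 and Col14a1, where 5 cells held it, 6 held Lhx2, 4 held Bgn and 2 held Postn.

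**Figure D4:**
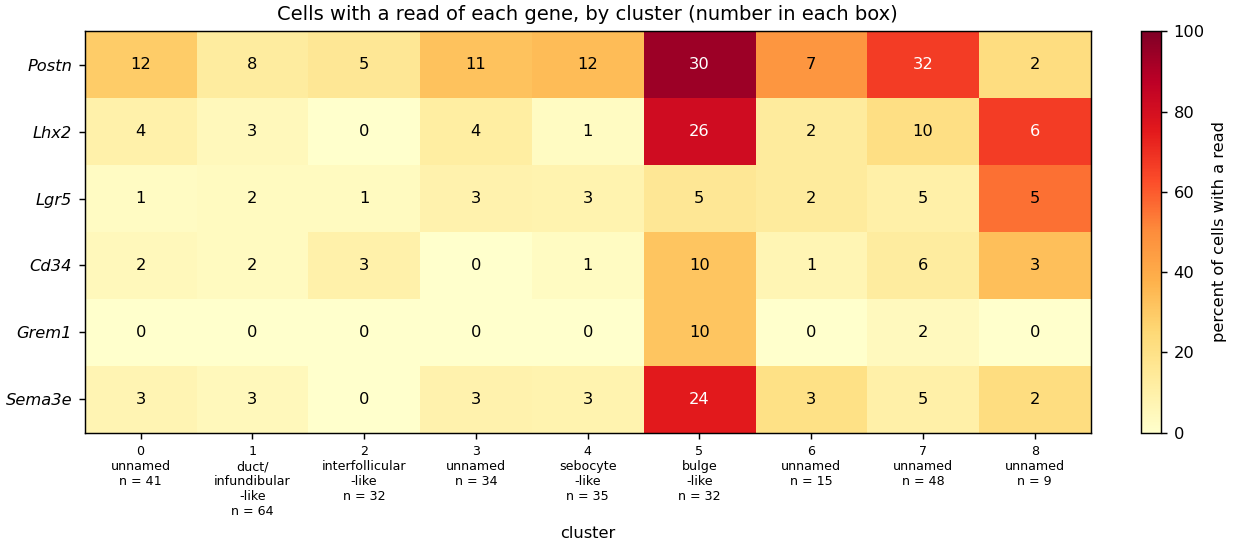
Percent of cells with a read of each gene (colour) and their number (printed) in 9 clusters built without these genes. Postn, Lhx2 and Sema3e peak in the 32 bulge-like cells, Grem1 is read there and in cluster 7 only, and Lgr5 has its highest share in the 9 cells of cluster 8.

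Bulge-like cells numbered 1 of 70 in RepI, 6 of 75 in RepL, 8 of 82 in RepM and 17 of 83 in RepN. Within them Lhx2 was read in 5 of 6 cells of RepL, 7 of 8 of RepM and 13 of 17 of RepN, and Sema3e in 4, 5 and 14 of them. Postn was in all bulge-like cells of RepL and RepN and in 6 of 8 of RepM. Grem1 was in 3 cells each of RepL and RepM and in 4 cells of RepN, a share of 50% in RepL and 23.5% in RepN, with Wilson intervals (18.8 to 81.2 and 9.56 to 47.3) that overlap. Lgr5 was in none of the 6 cells of RepL, in 1 of RepM and in 4 of RepN. No test between groups was run within the bulge-like cells, of which 38w had 7. The number of these cells moved with the summed levels of Lhx2 and Sema3e over the replicates, and its part in the group values was not tested.

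A wider set of bulge genes, the study's list for its bulge cluster from younger mice without the members (94 genes in the table), was read alongside the members. At 20000 reads per cell, a median of 20 of these genes was read in cells without a member, 26.5 in cells with 1, 31 in cells with 2 and 40 in cells with 3 or more, while the median number of all genes read was 2442, 2442, 2281 and 2396. The share of reads on the list was 1.58%, 1.38%, 1.67% and 2.64% in the same order, lowest in cells with 1 member. Within plates, cells with 3 or more members against none held a median of 41.5 against 23 on C119, 36.5 against 18 on C128 and 41 against 21 on C129.

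**Figure D5:**
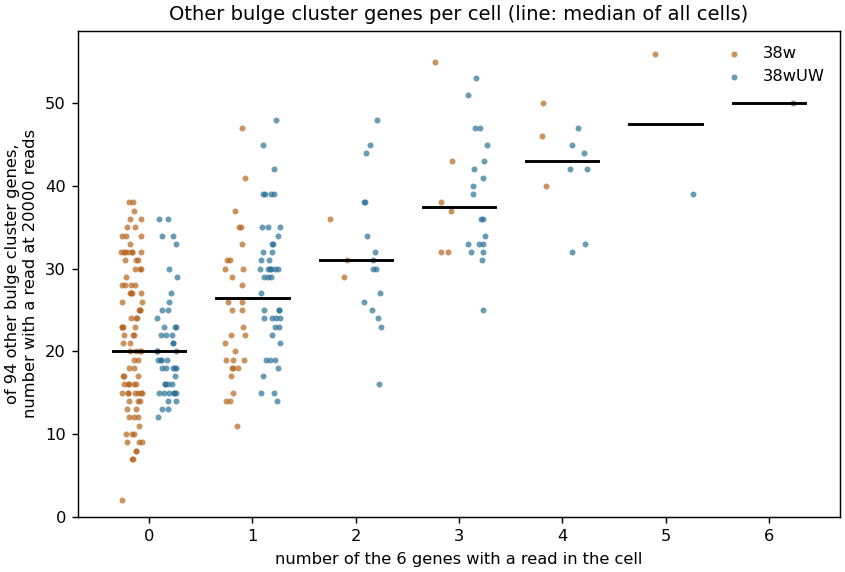
Number of 94 other bulge cluster genes with a read in each cell thinned to 20000 reads, against the number of the 6 genes read in the same cell, coloured by group, with the median over all cells as a line. The median rises from 20 without a member to 40 with 3 or more, and from 22 to 41.5 in cells of 38w and from 19 to 40 in cells of 38wUW.

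Postn was read on its own in 61 cells and beside another member in 58 cells. Its median level was 365 CPM in the first and 1552 CPM in the second, and 1 of 61 against 29 of 58 were bulge-like cells. Among bulge markers, Dkk3, a secreted Wnt modulator, was read in 31.1% of cells with Postn alone and 65.5% of cells with Postn and another member, and Cxcl14, a chemokine, in 36.1% and 67.2%. The 7 JZ markers were split. Aldh3a1 and Adh7, aldehyde and alcohol dehydrogenases, were read in 86.9% and 78.7% of cells with Postn alone against 55.2% and 50%, Plet1 in 49.2% against 31.0% and Sostdc1 in 63.9% against 56.9%. The order was the other way for Lrig1 itself (27.9% against 55.2%), Lgr6 (4.92% against 19.0%) and Ptn (63.9% against 81.0%). Ly6a, a basal marker, was in 67.2% against 20.7%. Median depth was 66871 against 104534 reads. The plates differed too, with 10 of 61 against 2 of 58 cells on C114 and 19 against 34 on C129. The parts of depth and plate in these shares were not tested. With Postn absent, 37 cells held another member, and 2 of them were bulge-like.

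None of the related genes passed the edgeR test either (0 of 11760 called), while DESeq2 called 2 of the bulge cluster genes, named here after their values were seen. Nrcam, a cell adhesion molecule, had 1.13, 0.690, 8.41 and 37.5 CPM in RepI, RepL, RepM and RepN (adjusted p = 0.025), and S100a4, a calcium-binding protein, 77.7, 1.55, 2.01 and 1.39 CPM (adjusted p = 0.030) but 2.33 CPM on C118. Of the 93 other bulge cluster genes tested, 59 had lower and 34 higher fitted values in 38w (median log2 fold change -0.44, all genes 0.12), and 38 did not overlap downwards (40.9%, against 26.2% of all genes). Without C114 these were 50 of 91 lower (median -0.11, all genes 0.03) and 29 without overlap (31.9%, against 26.4%). Krt15, a keratin of bulge and basal cells, overlapped between the groups at 733, 591, 569 and 635 CPM, with 156 CPM on C118. In a second bulge list of 21 genes tested, of which 11 are also among the 93, 13 were lower (median -0.92, or -0.31 without C114). Of the 10 genes it adds, 7 were lower (median -1.13, or -0.34 without C114). Nfib, a regulator of HF stem cells that both lists hold, had 184, 318, 518 and 609 CPM and a negative value, while the values of Col17a1 (610, 604, 276 and 378 CPM) and Gas1 (142, 607, 286 and 468 CPM) were positive. Col17a1 had 248 CPM on C118, however, below both 38wUW replicates. Periostin partners went the other way, with 8 of 9 higher in 38w (median 1.36), or 6 of 7 without C114 (median 0.60). Tgfbi, the closest relative of Postn, had 364, 222, 106 and 244 CPM, Sparc, another matricellular protein, 225, 115, 36.7 and 19.2 CPM, beside 180 and 48.8 CPM for the pair on C118. The integrin subunits were split. Itgb1 at 65, 191, 130 and 280 CPM and Itgav at 24.2, 191, 80.4 and 68.2 CPM overlapped between the groups. Itgb5 (43.4, 9.998, 8.95 and 3.17 CPM) and Itgb3 (1.65, 1.55, 0.183 and 0.232 CPM) were higher in both 38w replicates. On C118, however, Itgb5 had 5.23 CPM, below RepM, and Itgb3, read in 7 cells, had no read.

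For the R-spondin and Wnt receptor genes 5 of 8 were lower (median -0.54), but 3 of 7 without C114 (median 0.43). Lgr4, the widely expressed relative of Lgr5, had 57.5, 78.4, 104 and 211 CPM, which did not overlap (log2 fold change -0.97 ± 0.84, edgeR adjusted p = 0.768) but did without C114, with 273 CPM on C118. Lgr6, a relative found in the upper follicle, had 22.0, 5.17, 10.6 and 86.6 CPM, and the Wnt receptors Lrp6 and Fzd7 12.2, 59.0, 93.2 and 115 CPM and 16.5, 36.4, 84.1 and 107 CPM. Znrf3 was read in all 310 cells, at 235 to 3613 CPM, whereas the other genes of the list were read in 26 to 186 cells, and the origin of its reads was not resolved. Without Znrf3, 5 of 7 genes of the list were lower (median -0.97), but 3 of 6 without C114 (median -0.18). Of 16 genes of BMP signalling, the pathway that Grem1 antagonises, 11 were lower (median -0.27), but 6 of 15 without C114 (median 0.13). The receptor Bmpr1a had 66.2, 189, 200 and 211 CPM, Bmpr2 97.1, 102, 308 and 148 CPM, the target Id3 163, 172, 103 and 103 CPM, and Fst, another secreted antagonist, 23.2, 85.2, 138 and 147 CPM. On C118 they had 231, 251, 33.1 and 24.1 CPM in this order. Without C114 the groups thus overlapped for Bmpr1a, Bmpr2 and Id3, but not for Fst. Of 8 semaphorin and plexin genes 4 were lower (median -0.09; 2 of 7 without C114, median 0.25), with Sema3c at 38.8, 99.3, 120 and 95.9 CPM and Sema3d at 9.46, 70.3, 17.2 and 36.6 CPM. Plxnd1 was not analysed here. Of 6 LIM-domain partners 2 were lower (median 0.83), and 3 of 5 without C114 (median -0.01). Ldb1, the cofactor of LIM-homeobox proteins, had 10.9, 5.69, 4.75 and 3.63 CPM, Lmo1 169, 84.5, 83.3 and 34.8 CPM and Ssbp2 74.4, 110, 172 and 173 CPM. On C118 Ldb1 had no read, Lmo1 15.1 CPM and Ssbp2 181 CPM, so without C114 the groups overlapped for each. Crkl, an adaptor that binds Cd34, had 7.92, 4.14, 10.6 and 16.5 CPM.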

How the data were processed

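Single tdTomato-positive cells were sorted into 96-well plates and sequenced with a modified Smart-seq2 protocol without molecular identifiers, so intervals and zero limits cover counting error only. The authors ran Salmon 0.13.1 (per the labels, beside Seurat and R 4.0.3) on the Ensembl mouse transcriptome (GRCm38) and deposited unscaled estimated counts, with 3.60% of the values not whole. The study's filters asked for at least 1000 genes and at most 50% mitochondrial reads in a cell, and 5 cells for a gene. Whether they shaped this table is not stated. Here every cell was kept (lowest 1996 genes, highest mitochondrial share 46.2%), and doublets were not called. Single cells were sorted, but the names leave this open for 11 wells of C114 and for the 2 MBULK samples.

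Replicate sums of the counts, rounded, entered edgeR 4.0.16 (R 4.3.3) with TMM factors and its low-count filter, and the quasi-likelihood test was adjusted by Benjamini-Hochberg at a threshold of 0.05, after a check on simulated data. DESeq2 1.42.0 was an alternative. Summed depth ran from 5472070 to 12946742 reads per replicate, given in the results as CPM. Clusters came from scanpy 1.11.5 (2000 variable genes, 20 components, 15 neighbours, Leiden resolution 1) without the members, cell cycle, mitochondrial, ribosomal protein and sex genes, and took the name of the cell type with the highest mean score where at least 3 of its markers rose by 0.5 on the log2 scale in 25% of cells and no other type had more markers among the 10 leading genes, which left a cluster of 41 cells (40 of them from C114) unnamed although 6 of 8 basal markers rose in it. Exonic lengths are from GENCODE M21, and 5 of 6 members matched RefSeq promoters. All 6 members are named in full, with the 3 genes of highest r among genes read in at least 15 cells, and from each related list the 2 to 4 most abundant genes and direct partners. The related lists hold other bulge genes, periostin partners, R-spondin and Wnt receptors, BMP signalling, semaphorins and plexins, LIM partners and Cd34 relatives. Members and lists were chosen with earlier results of these data known.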

Additional observations from a re-analysis of the deposited data

How the results depend on the processing

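The 6 log2 fold changes were refitted under 16 other settings each, 96 values in all. Of these, 86 kept their direction and their side of the threshold and 7 reversed. The other 3, of Postn, Grem1 and Sema3e, lay further below 0 without RepL, a fit with 1 replicate in 38w. Lgr5 reversed most often: it was 0.12 with RepI taken from C114 alone, 1.22 with equal weight per cell, 0.83 with thinned cells, and ranged from -0.90 to 0.35 when 1 replicate was left out (0.32 without RepL, 0.35 without RepN). Lhx2 was 0.27 with RepI from C118 alone, and Postn 0.031 without RepI. Leaving out 1 replicate, Postn ranged from -3.41 to 0.031, Lhx2 from -1.48 to -0.12, Cd34 from -3.22 to -1.43, Grem1 from -11.49 to -1.90 and Sema3e from -2.89 to -1.79. The number of genes called, 0 in edgeR, was 68 with DESeq2, 13 with the batch tag as a replicate block, 1 with the alternative tag, 1 without the low-count filter, and 0 to 1215 over the fits that drop 1 replicate (169 for RepI, 1215 for RepL). Of the differences in thinned shares 53 of 54 kept their direction, and that of Lgr5 reversed to 1.38 percentage points at a minimum of 5 reads and was -0.21 at 10000 reads, where the Sema3e shares overlapped too (p = 0.667 by the exact permutation test, also at a minimum of 5 reads). At Leiden resolution 0.6 the bulge-like cluster grew to 120 cells, in which the shares were 65.8% for Postn, 35.8% for Lhx2, 16.7% for Cd34, 10% for Grem1 and 28.3% for Sema3e. The fit with plates as units, the levels without the richest cells and the related lists without C114 were added after seeing the data. The causes were not tested. The groups share no replicate names, but batch tags in the labels (Replicate1 and Replicate2) span both, and the main tag and the alternative tag are exchanged between C128 and C129. As a replicate block on C114, C119, C128 and C129 the 2 tags gave -2.01 and -2.01 for Postn, -4.33 and -4.72 for Grem1 and -3.79 and -3.78 for Sema3e, and no member passed the threshold. Deviations of plates with the same tag correlated at 0.14 over 8993 genes with the main tag. The alternative tag only exchanges C128 and C129, which turns the sign (-0.14) and adds no second observation. Which tag pairs the plates was not settled. Grem1, Lgr5 and Cd34 were read in 12, 27 and 28 cells, so their shares per replicate rest on few cells.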

Other observations

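In the second bulge list of 21 genes tested, the 2 with an unadjusted p under 0.05 were Dkk3 (13.7, 11.9, 38.4 and 106 CPM in RepI, RepL, RepM and RepN, log2 fold change -2.24 ± 0.93) and Foxc1, a transcription factor that keeps bulge stem cells quiescent (21.6, 16.2, 69.8 and 106 CPM, -1.96 ± 0.88), both with an edgeR adjusted p of 0.617, and Dkk3 is also in the first list. Both were named after their values were seen, and in both the 38w replicates were the lower, C118 having 34.3 CPM of Dkk3 and 69.2 CPM of Foxc1, just under RepM. Among the semaphorin receptors Nrp2, a neuropilin, had 4.63, 3.96, 10.8 and 60.9 CPM (-2.80 ± 1.10, adjusted p = 0.617), and among the BMP genes Id4 had 5.24, 3.62, 102 and 21.2 CPM and Bmp4 3.80, 2.93, 0.365 and 0.232 CPM (-3.54 ± 1.06 and 3.73 ± 1.48, adjusted p = 0.617 for each), again picked by their values. Nrp2 (2.33 CPM) and Id4 (15.1 CPM) were also below both 38wUW replicates on C118. Bmp4 had no read there and no fitted value without C114.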
